A study of Mus musculus with 6 samples.

Results

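The tumour suppressor p53, encoded in the mouse by Trp53, and its direct target genes were followed through starvation of a cultured cell line. The set was a list of 32 genes: Trp53, its inhibitors Mdm2 and Mdm4, and targets of p53 in growth arrest, apoptosis, DNA repair and metabolism. A gene counted as measured when the array annotation gave a probe set to it alone. By this rule 28 of the 32 genes were measured, through 47 probe sets, among 12393 genes measured in all. Trp53, Bax, Eda2r and Tigar were not analysed here, so every value below belongs to a regulator or a target of p53 and none to p53 itself.

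The tested cells were of a line called PPP3R1 and were starved for 6 h, and the controls were cells of the same line in normal medium, according to the sample titles and the series design. PPP3R1 is also the name of the calcineurin B gene, and the labels do not say whether or how it was altered in the line, nor what the starvation medium lacked. The growth and treatment protocols name wild-type mouse embryonic fibroblasts (MEFs) as the control instead, and if that were so, the cell line and starvation could not be told apart in any difference below. Each group had 3 Affymetrix arrays, called biological replicates in the titles with no word on separate cultures, so that p-values reflect only the variation among these arrays, which may be technical. All values are log2 intensities from RMA, a procedure that corrects background, equalises the arrays' distributions and summarises the probes of a set. A difference of 1 is therefore 2-fold, differences are starved minus control, and levels of different probe sets cannot be compared with each other.

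Array medians lay between 6.74 and 6.78, and arrays correlated at 0.998 within groups and at 0.986 to 0.988 between them. Fibroblast markers were present in both groups, with 9 of 10 above 5 (log2), taken here as the limit of dim signal, and Thy1 below it. Of these 10 markers 3 rose, Col1a1 (by 0.57), Vim and Fn1, and 3 fell, Pdgfrb (by -0.81), Pdgfra and Dcn. All 6 endothelial markers and 7 of 8 epithelial markers were under 5 in both groups, as were 5 of 9 leukocyte, 3 of 6 neural and 2 of 4 pluripotent cell markers. Of the 9 leukocyte markers 2 rose, Cd68 (6.68 in starved and 6.25 in control cells) and Lyz2 (6.31 in starved and 6.07 in control cells), and 1 fell, Cd14 (8.02 in starved and 8.34 in control cells), while Ptprc was at 3.03 in starved and 3.07 in control cells. Of the neural markers Map2 (6.24 in starved and 5.50 in control cells) and Tubb3 (6.72 in starved and 6.26 in control cells) rose. Single markers of the other types rose: Nanog of pluripotent cells (5.78 in starved and 4.60 in control cells), and the dim Cdh1 of epithelial and Pecam1 of endothelial cells. The part of these markers in the results was not tested. In limma's test across all probe sets 40.8% of genes passed an adjusted p of 0.05, the threshold used throughout; 20.8% were higher and 20.1% lower in starved cells. These shares are the background for every count below, of p53 genes and of the lists set beside them.

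In unstressed cells p53 is a short-lived protein, because Mdm2 attaches ubiquitin to it and Mdm4 binds and masks its activation domain. DNA damage, nutrient loss, ribosomal stress and other signals relieve this block, mostly without a change in Trp53 RNA, and p53 then binds pairs of a half-site motif near its target genes and raises their transcription. The targets halt the cell cycle, repair DNA, adjust metabolism or start apoptosis, and Mdm2 is itself a target, which closes a feedback loop. Several targets also answer to other factors, such as ATF4 and FoxO in nutrient stress.

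More of the listed genes were higher in starved cells than lower. Of the 28 measured, 20 rose (against 20.8% of all genes), 3 fell (against 20.1%) and 5 did not pass. The median difference was 0.39, against -0.01 for all 12393 genes, and differences ran from -0.36 for Plk3 to 1.70 for Pmaip1. All 3 starved arrays lay above all 3 control arrays for 22 of the 28 genes, a pattern shown by 26.3% of all genes, and below them for 4, a pattern shown by 26.2%. Expressed as deviations from a gene's 6-array mean, the genes averaged 0.22, 0.18 and 0.18 in starved replicates 1, 2 and 3 and -0.19, -0.22 and -0.16 in control replicates 1, 2 and 3, so every starved array was above every control array. In cultured cells a rise in RNA per cell and a larger share of cells that express a gene cannot be told apart.

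**Figure D1:**
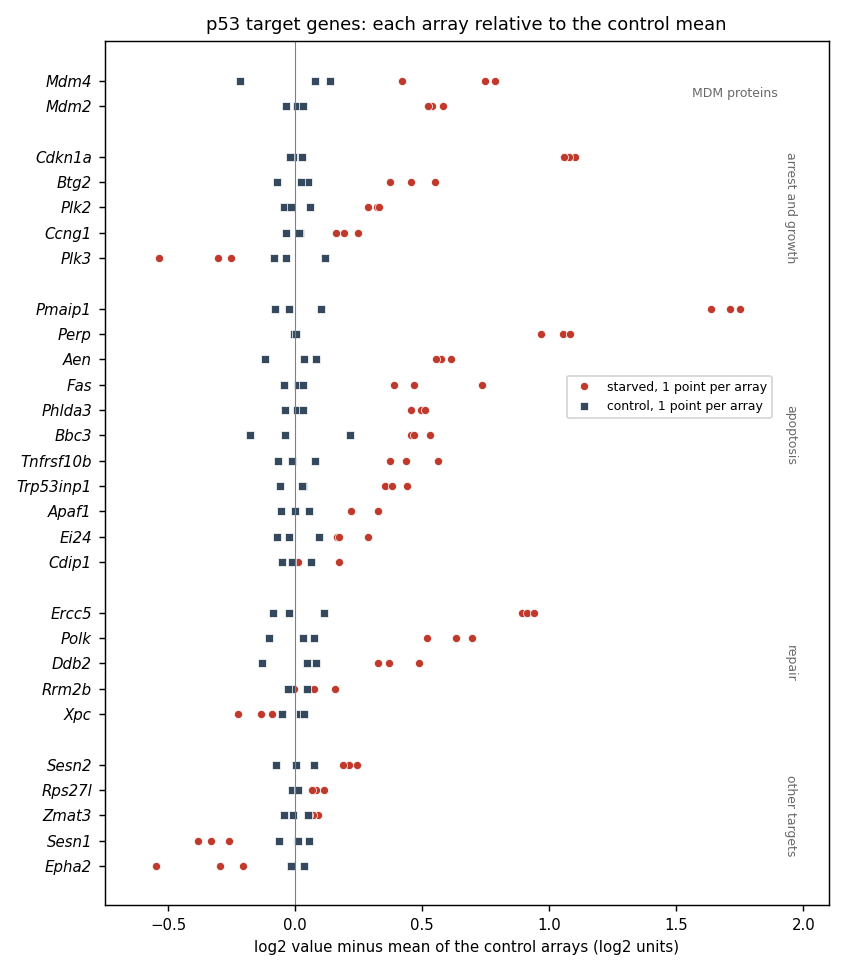
Each row is a listed gene, grouped by role, and each point is an array, drawn as its log2 value minus the mean of the control arrays; circles are starved and squares control. Starved points lie to the right of all control points for 22 genes, farthest for Pmaip1, Cdkn1a, Perp and Ercc5, and to the left for Plk3, Xpc, Sesn1 and Epha2.

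Proximal promoters of these genes show where p53 half-sites stand beside genes that rose, fell or did not pass. RefSeq promoter windows (build GRCm38.p6, 250 bases before to 50 bases after each annotated start) were at hand for 24 of the 32 genes, 20 of them measured. An exact p53 half-site, a motif of 10 bases that reads alike on both strands, was found in a window of 10 of the 24 genes (41.7%), against 9.55% of all 27025 genes with a window. A pair of half-sites with at most 13 bases between them and at most 1 mismatch was found for 2 of the 24, Cdkn1a and Rps27l, against 0.47% of all genes. Among measured genes a half-site stood in a window of 6 of 15 that rose (Mdm2, Ccng1, Cdkn1a, Aen, Ei24 and Polk), of 1 of 3 that fell (Sesn1) and of 1 of 2 that did not pass (Rps27l). A gene counted when any of its windows held the motif. By window, the half-site shares were 33.3% of 33 listed windows and 8.36% of all 32851. The list was drawn up from known p53 genes, so these shares describe it and test nothing. Well-known p53 sites of several targets lie outside such windows, so the absence of the letters here says nothing about binding. These 5 windows, of 3 genes that rose, 1 that did not pass and 1 that fell, are written 5′ to 3′ on the gene's strand with the half-sites, and both members of a pair, in capitals.
Cdkn1a, chr17:29090729-29091028, plus strand: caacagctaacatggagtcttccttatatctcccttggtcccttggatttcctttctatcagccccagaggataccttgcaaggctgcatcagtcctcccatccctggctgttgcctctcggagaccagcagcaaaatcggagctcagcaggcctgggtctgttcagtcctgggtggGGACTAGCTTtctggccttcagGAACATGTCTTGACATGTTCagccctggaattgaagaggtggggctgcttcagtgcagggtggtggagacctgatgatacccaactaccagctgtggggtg
Mdm2, chr10:117710709-117711008, minus strand: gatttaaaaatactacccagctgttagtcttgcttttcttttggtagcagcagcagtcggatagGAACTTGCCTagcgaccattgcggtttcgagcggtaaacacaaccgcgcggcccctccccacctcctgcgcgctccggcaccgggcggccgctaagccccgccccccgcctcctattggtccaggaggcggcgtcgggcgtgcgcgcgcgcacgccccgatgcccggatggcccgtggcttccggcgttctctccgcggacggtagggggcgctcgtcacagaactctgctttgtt
Aen, chr7:78895808-78896107, plus strand: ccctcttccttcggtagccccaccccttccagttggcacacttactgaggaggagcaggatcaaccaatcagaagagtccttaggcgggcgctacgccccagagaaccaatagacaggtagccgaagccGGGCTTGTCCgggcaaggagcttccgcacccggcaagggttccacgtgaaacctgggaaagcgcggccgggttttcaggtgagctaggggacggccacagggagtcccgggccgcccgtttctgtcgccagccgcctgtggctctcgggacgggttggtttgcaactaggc
Rps27l, chr9:66946163-66946462, plus strand: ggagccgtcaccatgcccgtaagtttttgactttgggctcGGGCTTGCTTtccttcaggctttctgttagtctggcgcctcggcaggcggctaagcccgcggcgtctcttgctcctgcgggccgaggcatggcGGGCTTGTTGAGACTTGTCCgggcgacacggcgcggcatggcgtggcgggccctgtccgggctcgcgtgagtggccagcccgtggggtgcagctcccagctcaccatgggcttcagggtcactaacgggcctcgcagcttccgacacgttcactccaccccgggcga
Sesn1, chr10:41887189-41887488, plus strand: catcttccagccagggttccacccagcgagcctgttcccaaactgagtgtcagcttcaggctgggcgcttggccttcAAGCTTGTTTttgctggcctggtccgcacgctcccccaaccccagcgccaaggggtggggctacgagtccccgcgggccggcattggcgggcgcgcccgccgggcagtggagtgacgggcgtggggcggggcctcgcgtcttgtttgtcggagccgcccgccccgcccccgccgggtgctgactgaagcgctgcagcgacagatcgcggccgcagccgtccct
In the Cdkn1a window the adjoining half-sites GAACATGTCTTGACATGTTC ran from 51 to 32 bases before the upstream annotated start, with 1 mismatch. A further exact half-site, 73 to 64 bases before that start, formed another pair with the first of them, with 12 bases between and 0 mismatches. The Rps27l pair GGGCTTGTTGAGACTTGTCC, from 117 to 98 bases before a downstream annotated start, also had 1 mismatch. Mdm2, Aen and Sesn1 had a lone half-site in the window shown. A match of letters is a description and was not tested for binding in these cells.

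Both measured inhibitors of p53 rose. Mdm2, the ubiquitin ligase of p53 and the target that closes its feedback loop, had values of 9.81, 9.77 and 9.75 in starved cells, against 9.20, 9.24 and 9.26 in control cells. The groups were far apart relative to their spread, and the rise was 0.55 ± 0.05 (SE, n = 3 per group), or 1.46-fold (limma adjusted p = 0.000132). Its other probe set rose by 0.69 ± 0.06. Mdm4, which masks the activation domain of p53 and has little ligase activity of its own, was less even, at 8.38, 8.42 and 8.05 in starved cells and 7.71, 7.41 and 7.77 in control cells. Starved replicate 3 was the lowest starved array and control replicate 2 the lowest control array, yet the groups did not overlap, and the rise was 0.65 ± 0.12 (limma adjusted p = 0.00402). That probe set can match several transcripts. The specific but dimmer probe set of Mdm4 rose by 0.34 ± 0.07 (limma adjusted p = 0.00466).

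All 5 measured genes of arrest and growth control passed, against 40.8% of all genes. In starved cells 4 were higher (against 20.8%) and 1 lower (against 20.1%). Cdkn1a encodes p21, the inhibitor of cyclin-dependent kinases through which p53 halts the cell cycle. It had values of 11.68, 11.66 and 11.64 in starved cells, against 10.61, 10.57 and 10.56 in control cells. Arrays of a group differed by less than 0.1 and the groups by 1.08 ± 0.05, a 2.11-fold rise (limma adjusted p = 5.33e-06), and only 1.40% of all genes rose more. Its other probe set gave 1.15 ± 0.06. Btg2, an antiproliferative protein that promotes the shortening of mRNA tails, had 8.31, 8.21 and 8.13 in starved cells and 7.81, 7.69 and 7.78 in control cells, a rise of 0.46 ± 0.07 (limma adjusted p = 0.00104). Its second probe set rose by 0.57 ± 0.08.

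Ccng1 encodes cyclin G1, which brings a phosphatase to Mdm2, and its 3 probe sets all rose but by unequal amounts. The brightest had 12.02, 11.93 and 11.97 in starved cells, against 11.79, 11.79 and 11.74 in control cells, a rise of 0.20 ± 0.05 (limma adjusted p = 0.0203). The others rose by 0.66 ± 0.05 and 0.40 ± 0.05, and the mean of all 3 by 0.42 (limma adjusted p = 0.000215). The call of the brightest probe set was lost without starved replicate 1 (limma adjusted p = 0.0651), starved replicate 3 (0.0560) or control replicate 3 (0.0546). The size of the Ccng1 rise thus depends on the probe set, whereas its direction was the same in all of them.

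The polo-like kinase genes of the list moved in opposite directions. Plk2, a stress-responsive kinase, had 9.62, 9.62 and 9.58 in starved cells and 9.35, 9.25 and 9.28 in control cells, a rise of 0.31 ± 0.06 (limma adjusted p = 0.00268). Plk3, its relative, was lower in starved cells, at 5.84, 6.07 and 6.12, against 6.34, 6.49 and 6.29 in control cells. The groups did not overlap, the fall was -0.36 ± 0.09 (limma adjusted p = 0.0140), and it was the lowest difference of the 28 genes. The call was lost without moderation of the spread (adjusted p = 0.0711).

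Among 11 measured genes of apoptosis 10 rose (against 20.8% of all genes), 0 fell (against 20.1%) and 1 did not pass in limma. Their median difference was 0.48. At an unadjusted limma p of 0.05 also 0 fell, against 2945 of all 12393 genes. Pmaip1 encodes NOXA, a BH3-only protein that neutralises the survival factor MCL1, and had the largest rise of all listed genes. Its values were 8.64, 8.56 and 8.68 in starved cells, against 6.91, 6.85 and 7.03 in control cells. The rise of 1.70 ± 0.07 was 3.24-fold (limma adjusted p = 3.04e-06), and 0.242% of all genes rose more. Bbc3 encodes PUMA, the other strong BH3-only target of p53, and had 7.46, 7.39 and 7.40 in starved cells and 7.15, 6.76 and 6.89 in control cells. Its control arrays were spread widely (SD 0.20) and its starved arrays narrowly (SD 0.04), and the rise was 0.48 ± 0.10 (limma adjusted p = 0.00512). Apaf1, the scaffold of the apoptosome that activates caspase-9, rose by a smaller amount, 0.29 ± 0.06 in its brighter and 0.33 ± 0.07 in its dimmer probe set.

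Both measured death receptor genes rose. Fas, the receptor of Fas ligand, had 9.22, 8.87 and 8.95 in starved cells, against 8.50, 8.44 and 8.51 in control cells. Starved replicate 1 stood above the other starved arrays, and the rise was 0.53 ± 0.09 with it (limma adjusted p = 0.00232) and 0.43 without it (0.00284). Tnfrsf10b, the mouse death receptor of TRAIL, had 6.88, 6.81 and 7.00 in starved cells and 6.43, 6.37 and 6.52 in control cells, a rise of 0.46 ± 0.07 (limma adjusted p = 0.00131). That probe set can match several transcripts, and the specific but dimmer one rose by 0.32 ± 0.07.

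Perp encodes a membrane protein of desmosomes that p53 induces in dying cells. It had 10.34, 10.26 and 10.37 in starved cells, against 9.29, 9.28 and 9.29 in control cells. The control arrays were almost identical and the rise was 1.03 ± 0.06, or 2.05-fold (limma adjusted p = 8.44e-06). Aen, a nuclease of apoptotic cells, had 8.68, 8.64 and 8.62 in starved cells and 7.95, 8.10 and 8.15 in control cells, a rise of 0.58 ± 0.07 (limma adjusted p = 0.000313). A second Aen probe set rose by 0.73 ± 0.06, and another, under 5 in both groups, did not pass (limma adjusted p = 0.230).

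Phlda3, a small protein that competes with the survival kinase Akt for membrane lipids, rose by 0.49 ± 0.05, at 11.00, 10.96 and 11.01 in starved cells and 10.51, 10.47 and 10.54 in control cells (limma adjusted p = 0.000236). Trp53inp1, a stress protein that acts with p53 and in autophagy, rose by 0.39 ± 0.06 in its brighter probe set (limma adjusted p = 0.00100) and by 0.54 ± 0.13 in its dimmer one. Ei24, an endoplasmic reticulum protein linked to apoptosis and autophagy, rose by 0.21 ± 0.07 (limma adjusted p = 0.0403). The Ei24 call was fragile: it held without control replicate 3 but not without any of the other 5 arrays (adjusted p from 0.0634 without starved replicate 2 to 0.125 without control replicate 2), without moderation (0.0777) and with the replicate number as a block (0.0692). Cdip1, a pro-apoptotic target, had overlapping groups at 7.37, 7.21 and 7.26 in starved cells and 7.26, 7.19 and 7.15 in control cells. Its difference of 0.08 did not pass (limma adjusted p = 0.375, 95% interval -0.07 to 0.23), nor did that of its other probe set (0.13, adjusted p = 0.111).

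Of the 5 genes of DNA repair and nucleotide supply 3 rose (against 20.8% of all genes) and 0 fell in limma (against 20.1%). The other 2 did not pass, 1 of which, Xpc, fell at an unadjusted limma p of 0.05. So did 2945 of all 12393 genes. Ercc5 encodes XPG, the endonuclease that cuts on the 3′ side of a lesion in nucleotide excision repair. It had 9.06, 9.08 and 9.11 in starved cells, against 8.14, 8.08 and 8.28 in control cells, a 1.89-fold rise of 0.91 ± 0.07 (limma adjusted p = 3.19e-05). Polk, a translesion DNA polymerase, had 8.60, 8.66 and 8.48 in starved cells and 7.86, 8.00 and 8.04 in control cells. It rose by 0.62 ± 0.07 (limma adjusted p = 0.000356), and by 0.33 ± 0.06 in its dimmer probe set. Ddb2, which recognises ultraviolet lesions, had 7.31, 7.19 and 7.14 in starved cells, against 6.86, 6.69 and 6.90 in control cells, a rise of 0.39 ± 0.08 (limma adjusted p = 0.00437). Its second probe set, which can match several transcripts, differed by 0.19 ± 0.06 and just missed the threshold (limma adjusted p = 0.0507).

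The damage sensor gene Xpc, which acts beside Ddb2, differed in the other direction from the 3 that rose. Its values were 6.96, 7.05 and 7.10 in starved cells, against 7.21, 7.14 and 7.22 in control cells. The groups did not overlap, but the difference of -0.15 ± 0.06 did not pass (limma adjusted p = 0.0854, 95% interval -0.29 to -0.01). It passed when arrays were centred on their medians (0.0485) and without dim probe sets (0.0432). Rrm2b, the p53-induced subunit of ribonucleotide reductase, had overlapping groups at 8.32, 8.23 and 8.16 in starved cells and 8.20, 8.14 and 8.13 in control cells. Its difference of 0.08 missed the threshold (limma adjusted p = 0.384). The 95% interval was -0.07 to 0.22.

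The remaining targets, of nutrient sensing, RNA binding and signalling, had a median difference of 0.07. Among 5 measured, 1 was higher (against 20.8% of all genes), 2 lower (against 20.1%) and 2 not past the threshold. The sestrins Sesn1 and Sesn2 bind the GATOR2 complex and hold back the growth kinase mTORC1 when amino acids are short. They moved in opposite directions. Sesn1 had 9.94, 9.81 and 9.86 in starved cells, against 10.13, 10.25 and 10.21 in control cells. The fall was -0.32 ± 0.06 (limma adjusted p = 0.00374) in a probe set that can match several transcripts. The other probe sets fell as well, by -0.54 ± 0.11 in another of that kind and by -0.38 ± 0.05 in a specific one. All 3 passed in the lower direction. Sesn2, which is also a target of ATF4, had 7.61, 7.59 and 7.64 in starved cells and 7.47, 7.32 and 7.40 in control cells, a rise of 0.22 ± 0.06 (limma adjusted p = 0.0217). Its second probe set rose by 0.29 ± 0.08 (limma adjusted p = 0.0160). The brighter probe set lost its call without starved replicate 1 (0.0544), starved replicate 3 (0.0724) or control replicate 2 (0.0732).

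Epha2, an ephrin receptor tyrosine kinase that growth signals also induce, was lower in starved cells at 6.73, 7.07 and 6.98, against 7.26, 7.31 and 7.26 in control cells. Starved replicate 1 was the lowest array, and the fall was -0.35 ± 0.09 (limma adjusted p = 0.0152) and -0.25 without it; the call was lost without moderation (0.0728). Zmat3, a zinc finger protein that binds RNA, had 9.53, 9.51 and 9.49 in starved cells and 9.39, 9.43 and 9.49 in control cells. Its difference was 0.07 ± 0.05 (limma adjusted p = 0.351, 95% interval -0.05 to 0.20). Rps27l, a close relative of the ribosomal protein gene Rps27, had 12.75, 12.72 and 12.70 in starved cells, against 12.64, 12.63 and 12.65 in control cells. All 3 starved arrays were higher, but by only 0.09 ± 0.05, which did not pass (limma adjusted p = 0.229). It passed without moderation (0.0200) and with an intensity trend and robust moderation (0.0302). The Rps27l promoter pair shown above thus stood beside a gene with little difference, and the lone Sesn1 half-site beside a gene that fell.

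**Figure D2:**
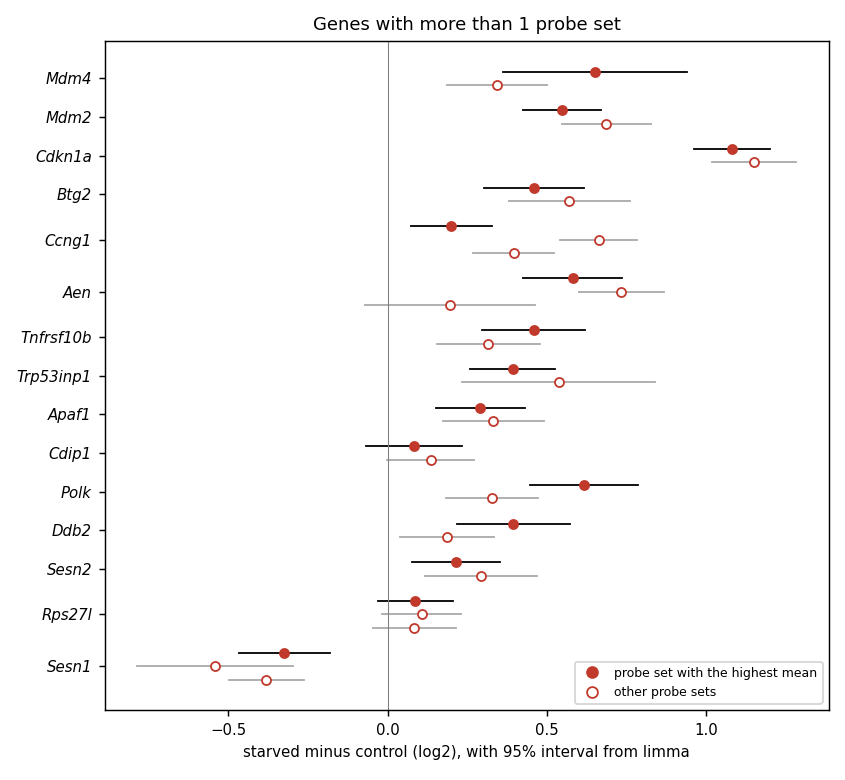
Points are the difference between starved and control cells (log2) for every probe set of the 15 genes with more than 1, with 95% intervals from limma; filled points mark the probe set with the highest mean. No gene had probe sets past the threshold in opposite directions, and Ccng1 and Aen show the widest range between their probe sets.

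Probe sets of a gene mostly moved alike. Of the 47 probe sets, 37 passed (39.5% of all probe sets did), 32 of them higher (20.3%) and 5 lower (19.2%), and 10 did not pass. Among 15 genes with more than 1 probe set, all passed in a single direction in 11, some passed and some did not in 2 (Aen and Ddb2), none passed in 2 (Cdip1 and Rps27l), and 0 had calls in opposite directions. The other 13 genes rest on 1 probe set each, among them Pmaip1, Perp, Ercc5, Fas and Bbc3. By size, 3 listed genes rose by at least 1, against 1.71% of all genes, 9 rose by at least 0.5, against 7.79%, and 0 fell by at least 0.5, against 6.63%.

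Regulators of p53 outside the list were mixed, with 22 measured of 30 named and a median difference of 0.18. Among those measured, 9 were higher (against 20.8% of all genes), 2 lower (against 20.1%) and 11 not past the threshold. Ppm1d, the phosphatase WIP1 that reverses p53 activation and is itself a p53 target, had 7.36, 7.10 and 7.18 in starved cells, against 6.03, 6.22 and 6.28 in control cells. It rose by 1.04 ± 0.09 (limma adjusted p = 8.05e-05), a size close to that of Cdkn1a (1.08). The checkpoint kinase gene Chek2, whose product phosphorylates p53, rose by 0.72 ± 0.06. Daxx, a chromatin protein that binds Mdm2, rose by 1.18 ± 0.13 and Aurka, a mitotic kinase that phosphorylates p53, by 1.82 ± 0.07. Cdkn2a, which encodes the Mdm2 inhibitor ARF in one of its reading frames, was close to background at 3.13 ± 0.13 in starved and 3.23 ± 0.04 in control cells (SD, n = 3 each; limma adjusted p = 0.340). The ribosomal protein gene Rpl11, whose product binds Mdm2 in ribosomal stress, differed by -0.13 and the ubiquitin ligase gene Cop1 by -0.09, neither passing (limma adjusted p = 0.0865 and 0.241).

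A second list of 40 reported p53 targets, none of them among the 28, was less one-sided. Of 34 measured, 13 rose (against 20.8% of all genes), 8 fell (against 20.1%) and 13 did not pass, with a median of 0.13. The share that fell was thus near that of all genes. Its largest changes were in Ckap2 (1.61 ± 0.07), a spindle protein, Tap1 (1.42 ± 0.09), the peptide transporter of antigen presentation, Gtse1 (0.89 ± 0.09), which counters p53 in G2, and the chemokine receptor gene Ackr3 (-0.95 ± 0.08). Gadd45a, a stress gene of growth arrest and repair, had 9.69, 9.53 and 9.44 in starved cells and 9.18, 9.01 and 8.97 in control cells, a rise of 0.50 ± 0.09 (limma adjusted p = 0.00230). Gpx1, a glutathione peroxidase, differed by -0.15 and the lipoprotein receptor gene Lrp1 by -0.41, neither passing (limma adjusted p = 0.0520 and 0.0521). Of the 7 genes of the ATF4 response set beside Sesn2, 4 rose (against 20.8% of all genes) and 1 fell (against 20.1%). Nupr1 rose by 1.35 ± 0.06, Asns by 1.00 ± 0.05, Ddit3 by 0.92 ± 0.06 and Atf3 by 0.71 ± 0.12. Trib3 fell by -0.29 ± 0.07 (limma adjusted p = 0.0130), and by -0.20 ± 0.06 in its other probe set. Atf4 itself (-0.05) and Chac1 (-0.05) did not pass. The part of the ATF4 response in the differences of Sesn2, Pmaip1 and Tnfrsf10b was not tested.

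Genes that p53 is known to repress through p21 and the DREAM complex, a repressor of cell cycle genes, were higher in starved cells, as was Cdkn1a itself. Of 20 such genes 17 were measured and 17 rose (against 20.8% of all genes), with a median difference of 1.24. Kif23 rose by 2.00 ± 0.08, Plk1 by 1.73 ± 0.09, Cdc20 by 1.70 ± 0.08 and Cenpf by 1.67 ± 0.09. Plk1 had 10.14, 10.15 and 10.12 in starved cells, against 8.28, 8.33 and 8.61 in control cells, so that its smallest gap between an array of each group was larger than the Cdkn1a difference. Ckap2, Gtse1 and Aurka of the lists above are themselves genes of mitosis. The part of this rise of cell cycle genes in the differences of the p53 targets was not tested.

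**Figure D3:**
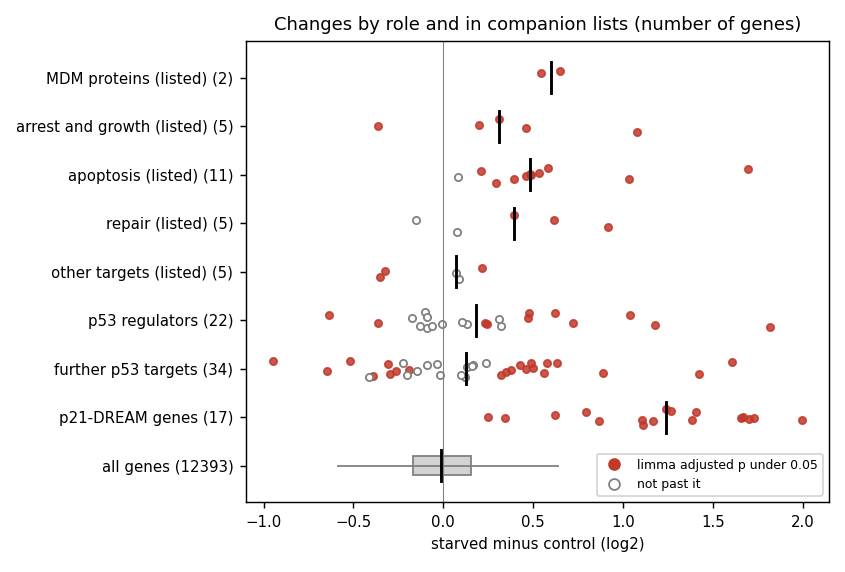
Each point is a gene, placed at its difference between starved and control cells (log2); filled points passed a limma adjusted p of 0.05, open ones did not, and the black bar is the median. The box spans the quartiles of all genes (-0.17 to 0.16) and its line runs from the 5th to the 95th percentile (-0.58 to 0.64). The listed apoptosis genes centre on 0.48 and the genes repressed through p21 and DREAM on 1.24, while the further p53 targets lie on both sides of 0.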

How the data were processed

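Total RNA of 3 starved and 3 control samples was labelled with biotin and hybridised to 1 array each. The deposited values are log2 intensities, 1 per probe set and array. Per the submitters' processing notes, the authors made these log2 values with RMA from the affy package, and no versions are given in the sources used here. Because RMA equalises the arrays, a shift shared by most transcripts would not show. Of 22690 probe sets, 64 controls were set aside and 22626 tested. The platform annotation named 1 gene for 20380 of them, several for 691 and none here for 1555. The older name Setd8 was matched to Kmt5a through RefSeq synonyms.

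Sample titles gave the groups. The comparison used limma 3.58.1 in R 4.3.3 (lmFit, eBayes, two-sided, no covariate) with Benjamini-Hochberg adjustment across all probe sets. Where a gene had several probe sets, the one of the highest mean stood for it. Arrays with the same number did not deviate together (correlations of -0.0944, 0.0148 and -0.00833), so the numbers were not used as pairs. The members and all companion lists were chosen with earlier results of these data known, so counts describe the lists and are not tested. All measured members were named. From each companion list the text names up to 4 called genes of the largest change, up to 2 others of the highest level, and Cdkn2a, Ppm1d and Gadd45a. Trib3 is named besides, as the ATF4 response gene that fell. The fit was also run on simulated data, in which far fewer probe sets changed than passed here. That run does not measure the accuracy of the calls in these data. Promoter windows were searched in Python 3.11.15, and figures were drawn with matplotlib 3.10.9. Scan dates were not used here, and a batch aligned with the groups and starvation cannot be told apart. The number of arrays limits the precision.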

Additional observations from a re-analysis of the deposited data

How the results depend on the processing

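Each result was recomputed under 18 alternatives, or 17 for the counts over all probe sets, which a mean per gene cannot give (a dim filter, other normalizations, moderation, array weights, probe set choices, adjustments, thresholds, the replicate block and leaving out each array). None of the 28 genes changed direction. In 12 of them the call, or its absence, was the same under every alternative. In 21 it was the same under all but the stricter threshold of 0.01 and the minimum change of 0.5. Both numbers include Cdip1, Rrm2b and Zmat3, which never passed. The listed genes called higher numbered 17 to 19, and those called lower 3, on leaving out single arrays. With the replicate number as a block, 19 were higher and 3 lower, the Ei24 call being lost. Leaving out single arrays gave 3949 to 4429 probe sets higher and 3693 to 3965 lower overall. It gave 8 to 10 p53 regulators higher and 2 lower, 13 to 14 further p53 targets higher and 7 to 8 lower, 16 to 17 genes repressed through p21 and DREAM higher and 0 lower, and 4 ATF4 response genes higher and 1 lower. A minimum change of 0.5, which removes small changes by construction, left 9 listed genes higher and 0 lower, 5 regulators higher and 1 lower, 6 further targets higher and 3 lower, 0 ATF4 genes lower, and 1706 probe sets higher and 1474 lower. At a threshold of 0.01 there were 1 listed gene, 1 regulator, 5 further targets and 0 ATF4 genes lower. Without moderation 1 listed gene was lower. Adjustment over 1 probe set per gene tests fewer probe sets and called 2585 higher and 2498 lower. Signal near background limits the dim probe sets, such as that of Cdkn2a.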
